A study of Mus musculus with 6 samples.

Results

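Atf4, Atf5, Xbp1 and Asns encode regulators and an output of the integrated stress response and the unfolded protein response, and they were followed in mouse embryonic fibroblasts with and without cyclophilin D. The genes were chosen by name, with earlier results of these data known. Every probe was taken whose single symbol in the probe annotation was one of the 4. This gave 6 probes of the 45281 on the array, 1 each for Atf4, Atf5 and Xbp1 and 3 for Asns, and all 6 were among the 27168 bright enough to be tested. By gene, the 4 stood among 7605 named genes tested. Atf4, Atf5 and Xbp1 encode transcription factors, whereas Asns encodes an enzyme that is a known target of ATF4.

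Total RNA came from fibroblast cultures made from C57BL/6 embryos (E13.5) and kept in DMEM with 10% FCS, and the labels name no stress treatment. Wild-type cells (WT, 3 arrays) were compared with CypD knockout cells (KO, 3 arrays), which lack cyclophilin D, a peptidyl-prolyl isomerase of mitochondria and the product of Ppif. The labels letter the arrays of each group A, B and C and do not say whether a letter stands for an embryo, a litter or a culture. The p-values therefore reflect spread between arrays that may be technical. The deleted part of Ppif is not stated in the labels.

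The integrated stress response starts when kinases such as PERK and GCN2 phosphorylate the translation factor eIF2. General translation then slows while ATF4 protein is made more efficiently, so mRNA level is only part of the control of ATF4. ATF4 binds C/EBP-ATF response elements in genes of amino acid supply and tRNA charging. Xbp1 mRNA is spliced by the sensor IRE1 when unfolded proteins gather in the endoplasmic reticulum (ER), and the spliced form encodes an activator of ER chaperone and degradation genes. ATF5 is a relative of ATF4 that has been tied to the mitochondrial unfolded protein response. The arrays measured mRNA, and whether the Xbp1 probe separates spliced from unspliced mRNA is not known.

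The letters of the C/EBP-ATF response element were looked for in RefSeq promoter windows (build GRCm38.p6), which run from 250 bases before to 50 bases after each annotated start. The motif searched was TGATGNAA, on both strands, and 3.97% of all 32851 windows held it. Asns held 1 match, TGATGAAA, starting -23 bases from its start, and the windows of Atf4, Atf5 and Xbp1 held none. Of the 24 tested amino acid response genes described below, 20 had a window, and 8 of their 27 windows (29.6%) held the motif. That list was made of known ATF4 targets, so the share describes the list. Among its genes called lower in KO, 6 of 20 windows (30%) held the motif. Slc1a4 and Herpud1, both called higher in KO and named here for this match, held it too. The 250 bases before the start are shown for Asns and for 4 known ATF4 outputs that fell in KO, with the motif or its reverse complement in capitals. They lie at chr6:7693210-7693459 (Asns, minus strand), chr3:50443614-50443863 (Slc7a11, minus strand), chr7:126625471-126625720 (Nupr1, minus strand), chr19:27216770-27217019 (Vldlr, plus strand) and chr15:11399659-11399908 (Tars, minus strand). Each is written 5′ to 3′ in the direction of transcription.
Asns: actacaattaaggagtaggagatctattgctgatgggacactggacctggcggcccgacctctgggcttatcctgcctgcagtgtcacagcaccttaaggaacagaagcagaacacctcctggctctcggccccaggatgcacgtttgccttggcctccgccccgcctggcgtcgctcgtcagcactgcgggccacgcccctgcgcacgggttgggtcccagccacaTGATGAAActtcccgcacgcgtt
Slc7a11: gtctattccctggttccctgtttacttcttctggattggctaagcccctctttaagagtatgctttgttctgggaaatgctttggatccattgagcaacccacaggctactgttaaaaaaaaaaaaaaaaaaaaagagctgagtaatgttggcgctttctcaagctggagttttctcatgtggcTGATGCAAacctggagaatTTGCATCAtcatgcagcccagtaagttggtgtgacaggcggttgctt
Nupr1: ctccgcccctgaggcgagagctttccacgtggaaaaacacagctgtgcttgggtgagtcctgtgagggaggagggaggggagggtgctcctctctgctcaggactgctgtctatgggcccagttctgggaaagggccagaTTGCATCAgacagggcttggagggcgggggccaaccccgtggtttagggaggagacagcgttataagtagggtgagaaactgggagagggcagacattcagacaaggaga
Vldlr: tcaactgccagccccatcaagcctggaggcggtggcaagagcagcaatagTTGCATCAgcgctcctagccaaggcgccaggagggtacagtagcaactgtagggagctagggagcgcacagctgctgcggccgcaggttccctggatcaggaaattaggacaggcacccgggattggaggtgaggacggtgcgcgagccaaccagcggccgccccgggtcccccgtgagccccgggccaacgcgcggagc
Tars: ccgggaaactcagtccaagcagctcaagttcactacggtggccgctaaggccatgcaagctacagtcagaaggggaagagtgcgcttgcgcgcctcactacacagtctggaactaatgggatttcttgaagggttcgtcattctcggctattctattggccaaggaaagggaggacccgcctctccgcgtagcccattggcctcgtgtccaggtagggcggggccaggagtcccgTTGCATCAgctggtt
The Slc7a11 window holds the motif on both strands, and in Nupr1, Vldlr and Tars the capitals are the reverse complement. Vldlr has 2 windows, and the one that holds the motif is shown. The 4 outputs shown all held the motif and fell, so they do not show how the motif and direction relate. A match describes the letters of the window and is not a measured binding site.

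Gene names were available for the 12534 probes of the authors' processed table. Each had a highest value at least 1.20 times its lowest over the 6 arrays, and a highest value of at least 273. A listed gene could thus go untested for want of a named probe as well as for dimness. Calls were frequent among named genes, and the part of either trait in this was not tested. At a limma adjusted p under 0.05, 20.0% of all probes tested were called, but 43.6% of named genes (3319 of 7605), with 21.8% higher and 21.8% lower in KO. The 3 KO arrays all lay above WT for 28.5% of genes and all below for 27.6%, or 56.1% together. Ppif was 2.59-fold lower in KO and still bright, and the place of its probe relative to the deletion is not known. WT array C stood apart from WT A and B, with 38 tested probes over 1 log2 unit from both, against 0 to 6 on each other array. Fibroblast markers were tested for 9 of 12 genes, with summed intensities of 36463 to 37570 in WT and 27798 to 32296 in KO. These markers moved both ways: 3 were called higher in KO (Pdgfra, Col3a1 and Pdgfrb, at 1.47, 1.13 and 0.41 on the log2 scale) and 4 lower (S100a4, Dcn, Col1a1 and Col1a2, at -1.62, -0.64, -0.63 and -0.36). Of 39 markers of other cell types, 13 were tested. The 3 tested neural markers (Stmn2, Mbp and Nes) were all lower in KO, with sums of 5581 to 6250 in WT and 1764 to 1870 in KO. The sums in WT and KO were 1819 to 1892 and 1432 to 1618 for endothelial, 1618 to 1633 and 2007 to 2131 for epithelial, 864 to 1066 and 879 to 902 for leukocyte, and 577 to 705 and 584 to 635 for muscle markers. Of the 4 tested epithelial markers, Spint1 was called higher (0.78) and Krt19 lower (-0.35), while Cldn7 and Cdh1 were at -0.39 and -0.09 and did not pass. Of the tested muscle markers, Acta1 was called lower (-0.79), and Myl4, at 0.16, did not pass. Of the tested endothelial markers, Egfl7 was called lower (-0.26), and Esam, at -0.38, did not pass. The tested leukocyte markers Cd14 and Coro1a, at -0.25 and 0.30, did not pass. The part of all these markers in the results below was not tested, and fewer cells of a type cannot be told apart from less RNA per cell.

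Atf4 mRNA was higher in the CypD knockout cells. Its normalized log2 intensity was 10.24, 10.42 and 10.14 on WT arrays A, B and C and 11.46, 11.10 and 11.53 on KO arrays A, B and C. The groups did not overlap, and the lowest KO array, B, lay above the highest WT array, also B. Atf4 rose 2.14-fold, from 10.27 ± 0.141 in WT to 11.36 ± 0.234 in KO (SD, n = 3 each), with a limma log2 fold change of 1.10 ± 0.11 SE and an adjusted p = 6.11e-06. Of the 6 probes it had the widest range within KO, 0.44 log2 units. Leaving out WT array C gave 1.03 (adjusted p = 2.99e-06).

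Xbp1 mRNA was higher in KO too. Its log2 intensity was 12.61, 12.48 and 12.36 on WT arrays A, B and C and 13.20, 13.16 and 13.20 on the KO arrays. The KO arrays were nearly equal, spanning 0.042 log2 units, and all lay above WT. Xbp1 rose 1.62-fold, from 12.48 ± 0.121 to 13.18 ± 0.0238 (SD, n = 3 each), and limma gave 0.70 ± 0.07 SE on the log2 scale (adjusted p = 4.67e-06). Leaving out WT array C gave 0.64 (adjusted p = 2.25e-06).

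Atf5 mRNA moved the other way. Its log2 intensity was 11.47, 11.59 and 11.23 in WT and 10.74, 10.97 and 10.78 in KO, for arrays A, B and C. Every KO array lay below every WT array. Atf5 fell 1.52-fold, from 11.43 ± 0.183 to 10.83 ± 0.12 (SD, n = 3 each), or -0.60 ± 0.10 SE on the log2 scale by limma (adjusted p = 0.000444). WT array C was the lowest of its group, and leaving it out gave -0.70 (adjusted p = 1.26e-05). KO array B, the lowest KO array for Atf4, was the highest KO array for Atf5.

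Asns, the asparagine synthetase gene, had lower means in KO by its 3 probes, and the call depended on the probe. By its brightest probe, the log2 intensity was 14.83, 14.69 and 14.81 in WT and 14.73, 14.46 and 14.62 in KO, and KO array A overlapped the WT range. The limma log2 fold change was -0.17 ± 0.07 SE (95% interval -0.31 to -0.03), which did not pass (adjusted p = 0.0991). The second probe read 12.94, 12.96 and 13.21 in WT and 12.84, 12.71 and 12.81 in KO, without overlap, and it fell, with -0.25 ± 0.08 SE (adjusted p = 0.0377). That call was lost without WT array C (-0.16, adjusted p = 0.12), KO array A (-0.27, 0.0573), KO array B (-0.21, 0.155) or KO array C (-0.26, 0.0805), and without the intensity trend (adjusted p = 0.12). The dimmest probe read 9.77, 9.98 and 9.33 in WT and 9.71, 9.45 and 9.57 in KO, with WT array C the lowest of all 6. It gave -0.12 ± 0.14 SE (adjusted p = 0.657). Its value was -0.30 without WT array C (adjusted p = 0.047) and 0.027 without WT array B (adjusted p = 0.931). The upper bounds of the 95% intervals were -0.03, -0.08 and 0.18 for the 3 probes, against a lower bound of 0.86 for Atf4.

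**Figure D1:**
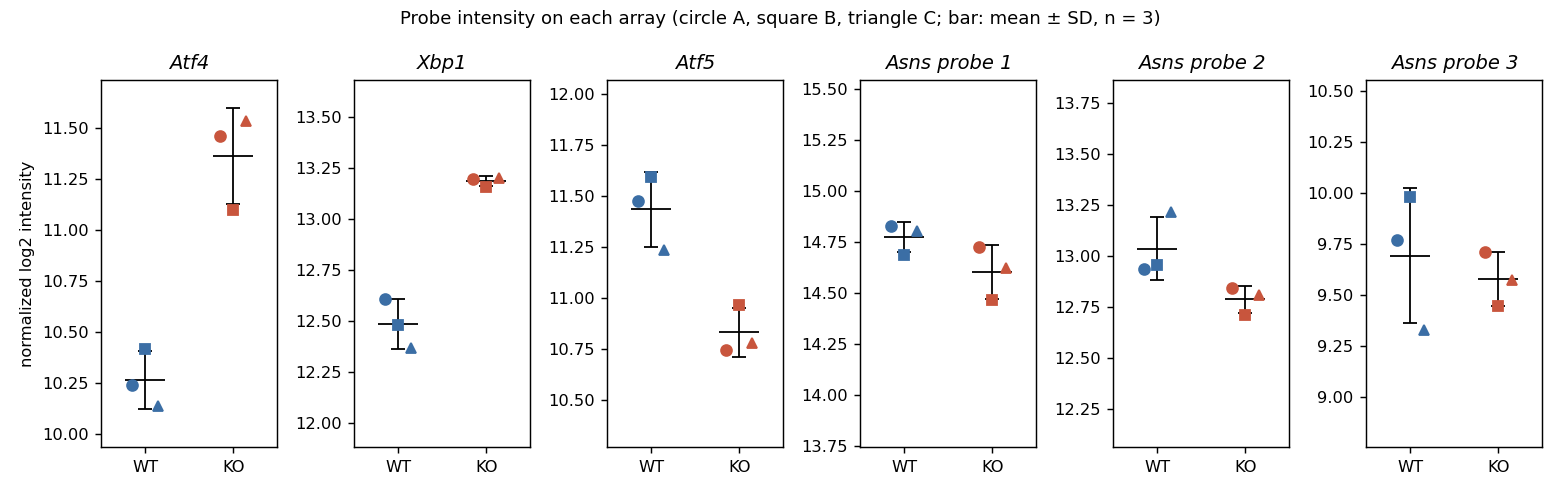
Normalized log2 intensity (vertical axis) of the 6 probes on each WT and KO array; symbols mark replicates A, B and C, and bars the mean ± SD of 3 arrays. Atf4 and Xbp1 are higher on all KO arrays, Atf5 is lower on all, and the brightest and the dimmest Asns probes overlap between the groups.

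By their brightest probes 3 of the 4 genes were called, beside a background of 43.6%, with Atf4 and Xbp1 higher and Atf5 lower. These calls held under each of 16 processing alternatives. The log2 fold change over them ranged from 1.01 to 1.23 for Atf4, from 0.63 to 0.76 for Xbp1 and from -0.70 to -0.52 for Atf5. Asns stayed negative in all 16, from -0.28 to -0.10, and was called in 3. Atf4, Xbp1 and Atf5 have 1 probe each, so averaging a gene's probes could not move them. The other filters, the fit without the intensity trend and the replicate block left the fold changes of the 4 genes unchanged. Those settings altered only the SE and adjusted p.

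**Figure D2:**
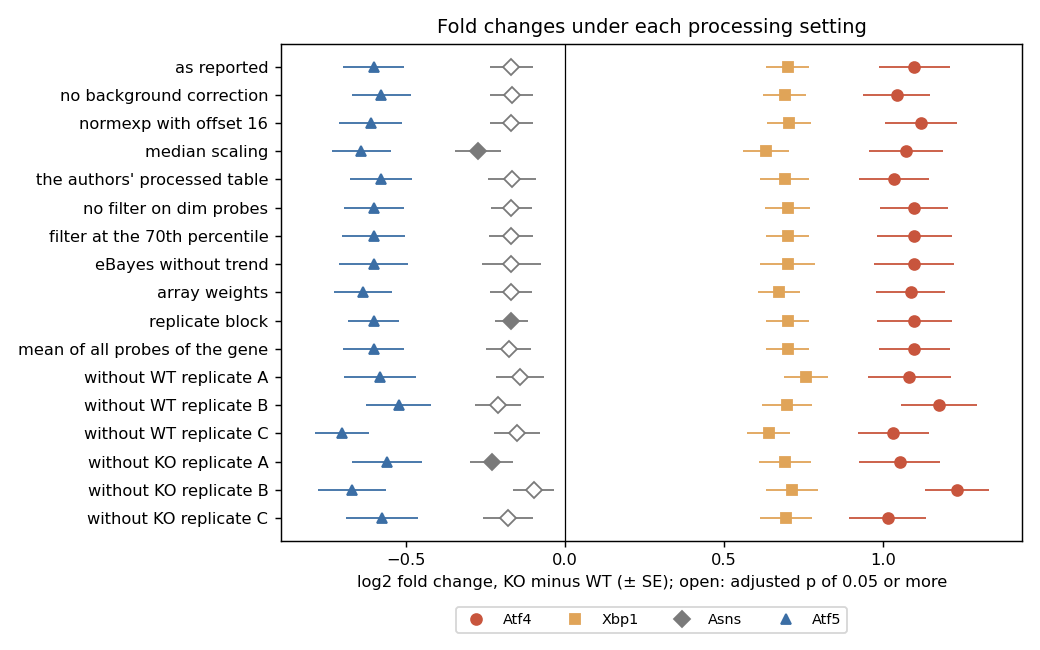
Log2 fold change (horizontal axis, KO minus WT, ± SE) of the 4 genes under each processing setting (rows); filled symbols passed an adjusted p of 0.05 and open ones did not. Atf4 lies between 1.01 and 1.23 over the alternatives and Asns between -0.28 and -0.10.

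The genes that ATF4 is known to activate in the amino acid response were more often lower than higher in KO. Of 42 listed genes, 24 were tested, of which 15 fell, 3 rose and 6 did not pass, so that 62.5% were lower and 12.5% higher, beside 21.8% each among all genes tested. The median log2 fold change was -0.32, against 0.01 for all genes tested. The list, like the others below, was chosen with earlier results of these data known. Its share therefore describes the list. Without Atf5 and Asns, which belong to the list, 14 of 22 fell and 3 rose. Of the 15 falls, 11 were called under every alternative, and of the 3 rises, 1.

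Nupr1, a stress-induced chromatin protein, had the lowest log2 fold change of the list. Its log2 intensity was 12.55, 12.45 and 12.55 in WT and 10.61, 10.62 and 10.52 in KO, a 3.82-fold fall (-1.93 ± 0.07 SE, limma adjusted p = 1.47e-10). Ddit4, an inhibitor of mTORC1 signalling, fell 2.01-fold, from 10.44, 10.71 and 10.78 to 9.54, 9.65 and 9.74 (adjusted p = 4.94e-06). Slc6a9, a glycine transporter, fell 1.86-fold, from 11.96, 11.73 and 11.75 to 10.91, 11.00 and 10.83 (adjusted p = 2.23e-06). In these genes every KO array lay below every WT array. Slc7a11, the cystine transporter subunit whose window holds the motif on both strands, fell 1.83-fold by its brightest probe, from 9.10, 9.10 and 9.27 to 8.31, 8.31 and 8.23 (adjusted p = 9.46e-06). Its dimmer probe gave -0.24 and did not pass. Vldlr, a lipoprotein receptor, fell 1.78-fold (-0.83 ± 0.08 SE, adjusted p = 6.39e-06), with -0.81 and -0.78 by its other probes.

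Other falls, chosen for mention after their values were seen, included mitochondrial one-carbon enzymes. Aldh1l2 and Shmt2 of that pathway fell, with log2 fold changes of -0.65 and -0.39 (limma adjusted p = 1.39e-05 and 0.000935), and their other probes were at -0.49 and -0.20. Atf3, a stress transcription factor, gave -0.55 (adjusted p = 0.00501), and the pseudokinase gene Trib3, whose product feeds back on ATF4, gave -0.33 (adjusted p = 0.0105). The Trib3 call was lost without KO array C (-0.30, adjusted p = 0.0547).

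The 3 rises were those of Vegfa, Ddit3 and Slc1a4, also named after their values were seen. Vegfa, an angiogenic growth factor, rose 1.37-fold (0.45 ± 0.08 SE, limma adjusted p = 0.00074). Ddit3, which encodes CHOP, a partner and target of ATF4 in ER stress, rose 1.35-fold, from 9.08, 8.87 and 9.14 to 9.43, 9.26 and 9.69 without overlap (adjusted p = 0.0172). The Ddit3 call was lost without WT array B (0.35, adjusted p = 0.0765) or KO array C (0.31, adjusted p = 0.101). Slc1a4, a neutral amino acid transporter, rose, with 0.25 ± 0.07 SE (adjusted p = 0.0286), and passed in only 1 of the 6 fits that left out an array, the one without WT array C, with a range of 0.24 to 0.27. It was also lost with median scaling (adjusted p = 0.0616) and without the intensity trend (0.0505). Slc3a2, a transporter subunit, was at 0.29 ± 0.11 (adjusted p = 0.0955), and passed without WT array C (0.38, adjusted p = 0.0196). Eif4ebp1, a translation repressor, had an adjusted p = 0.991 and a log2 fold change of -0.0027.

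Cytosolic aminoacyl-tRNA synthetases, the enzymes that charge tRNAs, fell or did not pass. Some of them are known outputs of ATF4, but the list was made of the family, whatever the tie to ATF4. Of 20 listed, 13 were tested, 7 fell, 0 rose and 6 did not pass, so that 53.8% were lower and 0% higher, beside 21.8% each among all genes tested. The median log2 fold change was -0.23. Earlier results of these data were known when this list was chosen too, so its share describes the list. Lars, the leucine enzyme, fell 1.51-fold, from 14.90, 14.91 and 14.84 to 14.24, 14.35 and 14.28 (limma adjusted p = 1.5e-06), and its other probe gave -0.83. Tars, the threonine enzyme whose promoter is shown above, fell 1.46-fold, from 12.03, 12.15 and 12.16 to 11.50, 11.66 and 11.56 by its brighter probe (adjusted p = 7.93e-05), while the other gave -0.33 and did not pass (adjusted p = 0.0574). By the brighter probes both genes were lower on every KO array. Iars and Farsa, for isoleucine and phenylalanine, fell 1.32-fold and 1.4-fold (adjusted p = 0.000399 and 0.00455), and Rars, for arginine, 1.17-fold (adjusted p = 0.0221). The Rars call was lost without WT array B (-0.23, adjusted p = 0.055), KO array A (-0.22, 0.0736) or KO array B (-0.19, 0.105), and without the intensity trend (adjusted p = 0.0926). Without the intensity trend the list held 4 falls. Eprs, Vars and Cars were at -0.14, 0.09 and -0.12 and missed the threshold, and Eprs passed without WT array C (-0.32, adjusted p = 0.0398).

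**Figure D3:**
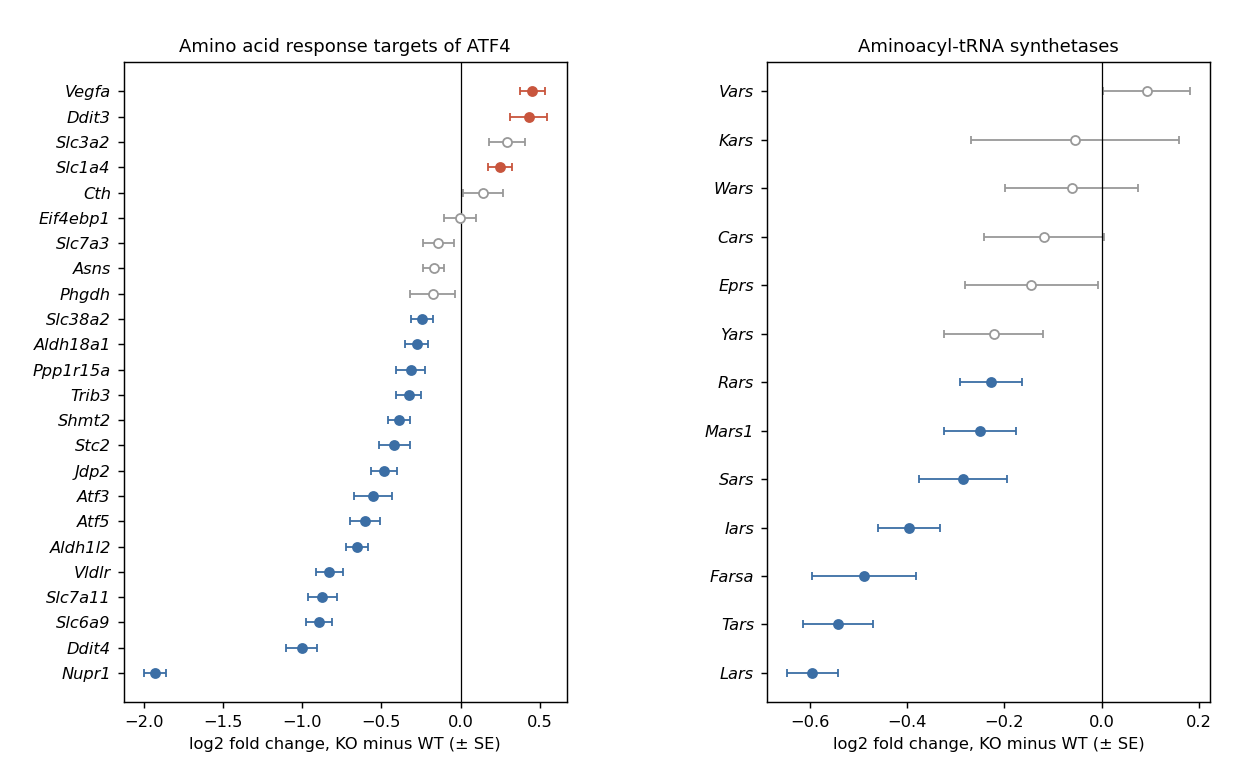
Log2 fold change (horizontal axis, KO minus WT, ± SE) of each tested amino acid response gene and aminoacyl-tRNA synthetase; filled symbols passed an adjusted p of 0.05 and open ones did not. Nupr1 lies lowest at -1.93, and Vegfa, Ddit3 and Slc1a4 are the 3 called rises.

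Upstream of Atf4, the eIF2 pathway held calls at a share near that of all genes. Of 19 listed kinases, subunits and phosphatase parts, 9 were tested, 3 fell, 0 rose and 6 did not pass, or 33.3% lower, beside 43.6% called and 21.8% lower among all genes tested. The median log2 fold change was -0.11. Impact, an inhibitor of the amino acid sensor GCN2, fell 1.31-fold, from 12.20, 11.99 and 12.10 to 11.69, 11.68 and 11.75 (limma adjusted p = 0.00131), and its other probe gave -0.58. Eif2s3x, the X-linked gamma subunit of eIF2, fell 1.24-fold (adjusted p = 0.00586), a call lost without the intensity trend (adjusted p = 0.053). Ppp1r15a, the stress-induced phosphatase subunit GADD34 and also a target of ATF4, fell 1.24-fold (adjusted p = 0.0226). The Ppp1r15a call was lost without WT array C (-0.24, adjusted p = 0.0599), KO array A (-0.28, 0.0896) or KO array C (-0.31, 0.0763). Eif2ak2, the kinase PKR, was at 0.12 ± 0.08, and Eif2b5 and Ppp1cc, an eIF2B subunit and a phosphatase catalytic subunit, at 0.05 ± 0.08 and 0.03 ± 0.08, all short of the threshold. Eif2ak1, Eif2ak3 and Eif2ak4, the kinases HRI, PERK and GCN2, had no tested probe with a single gene symbol. This does not show that their mRNA was absent.

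The ER chaperone and degradation genes that XBP1 and ATF6 are known to drive held few calls. Of 42 listed, 22 were tested, 3 rose, 3 fell and 16 did not pass, with a median log2 fold change of -0.07. The share of 13.6% in each direction stood beside 21.8% among all genes tested. Dnajc10, an ER reductase, rose 1.32-fold, from 13.10, 13.02 and 13.11 to 13.47, 13.51 and 13.44 (limma adjusted p = 0.000166), with 0.35 and 0.01 by its other probes. Pdia4, a disulfide isomerase, rose 1.31-fold, from 12.71, 12.73 and 12.26 to 12.92, 12.98 and 12.98 (adjusted p = 0.0131). The Pdia4 call was lost without KO array B (0.38, adjusted p = 0.0552) and without the intensity trend (adjusted p = 0.0549). WT array C was low for Pdia4, and without it the log2 fold change dropped from 0.39 to 0.24 (adjusted p = 0.0128). Herpud1, of ER-associated degradation and named after its values were seen, was the remaining rise at 0.19 ± 0.06 SE (adjusted p = 0.046), and passed in only 1 of the 6 fits that left out an array, the one without KO array A, with a range of 0.15 to 0.22. The Herpud1 call was also lost with median scaling (0.12, adjusted p = 0.248), in the authors' processed table (0.0516), without a filter (0.0722), without the intensity trend (0.15) and with the replicate block (0.0708). Without KO array B the list held 1 rise and 2 falls.

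Falls in the same list were those of Ero1b, Sil1 and Creld2. Ero1b, an ER oxidase, fell 1.51-fold, from 8.15, 8.52 and 8.37 to 7.70, 7.85 and 7.70 (limma adjusted p = 0.00156). Sil1, a nucleotide exchange factor of the chaperone BiP, fell 1.45-fold (-0.54 ± 0.09 SE, adjusted p = 0.000899). Creld2, a secreted ER stress protein, fell 1.2-fold, from 12.56, 12.44 and 12.47 to 12.20, 12.19 and 12.29 (adjusted p = 0.0105), and its other probe gave -0.31. The Creld2 call was lost without WT array A (-0.23, adjusted p = 0.0513) or KO array B (-0.24, adjusted p = 0.0519). Hspa5, which encodes BiP itself and was named after its values were seen, was at 0.20 ± 0.09 (adjusted p = 0.164). Ssr3, Syvn1 and Pdia3 were at 0.15, -0.13 and -0.22 and missed the threshold. Pdia3, another disulfide isomerase, passed without WT array C (-0.44, adjusted p = 0.000321).

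The unfolded protein response element was searched on both strands as TGACGTGG and stood in 0.676% of all windows. It was found in 1 of the 22 windows of the ER genes (4.55%). That window belongs to Txndc11, which did not pass and is named for this match. Mapk8 and Vegfa, both called higher, and Nfe2l1, which did not pass, also held it. No window of Atf4, Atf5, Xbp1 or Asns did. The ER stress response element was searched on both strands as CCAAT, then 9 bases of any kind, then CCACG, and stood in 0.119% of all windows. It was found in 6 of the 22 windows of these ER genes (27.3%), those of Ero1b, Creld2, Hspa5, Syvn1, Calr and Pdia6. Calr and Pdia6 are named for this match and after their values were seen. Of these 6 genes, 2 fell and 4 did not pass. The list was made of genes known to be driven by XBP1 or ATF6, so the share describes the list. Of its 22 tested genes, 20 had a window, and of its 3 falls, 2 had one. The 250 bases before the start are shown for Creld2 (chr15:88819396-88819645, plus strand), which fell, and Hspa5 (chr2:34771840-34772089, plus strand), which did not pass, with the element in capitals, in Creld2 as its reverse complement.
Creld2: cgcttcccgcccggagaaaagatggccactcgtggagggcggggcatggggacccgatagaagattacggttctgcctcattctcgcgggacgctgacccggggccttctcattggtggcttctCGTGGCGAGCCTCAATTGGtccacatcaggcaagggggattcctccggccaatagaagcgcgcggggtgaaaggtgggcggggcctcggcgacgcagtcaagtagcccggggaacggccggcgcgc
Hspa5: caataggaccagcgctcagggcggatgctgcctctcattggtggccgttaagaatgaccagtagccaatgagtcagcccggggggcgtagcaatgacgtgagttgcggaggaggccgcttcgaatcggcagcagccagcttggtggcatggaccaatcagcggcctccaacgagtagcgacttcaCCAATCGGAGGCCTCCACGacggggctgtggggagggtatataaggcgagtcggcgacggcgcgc

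Mitochondrial chaperones and proteases, the group to which ATF5 has been tied, were listed with Atf5 and other stress genes. The list was called about as often as all genes. Its falls were Afg3l2 and Hspa9, of a protease and a chaperone, and Atf5, Txn2 and Dele1, which are neither. Of 17 listed genes, 11 were tested, 5 fell, 0 rose and 6 did not pass, and without Atf5 itself 4 of 10 fell. The share called was 45.5%, all lower, beside 43.6% called and 21.8% lower among all genes tested. Afg3l2, a subunit of an inner membrane protease, fell 1.87-fold, from 11.14, 10.98 and 11.14 to 10.31, 10.18 and 10.06 (limma adjusted p = 3.65e-06), with -0.54 and -0.48 by its other probes. Hspa9, the matrix chaperone mortalin, fell 1.32-fold, from 15.73, 15.74 and 15.83 to 15.42, 15.38 and 15.31 (adjusted p = 3.7e-05), with -0.56 by its other probe. Both lay lower on every KO array. Txn2, mitochondrial thioredoxin, fell 1.34-fold by its brighter probe (adjusted p = 0.00363), with 0.07 by the other. Dele1, which relays mitochondrial stress to the kinase HRI, fell 1.26-fold by its brighter probe (adjusted p = 0.0174), while the other gave -0.13 and did not pass. The Dele1 call was lost without WT array A (-0.33, adjusted p = 0.0589), KO array A (-0.28, 0.0833) or KO array B (-0.35, 0.0525).

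Hspd1, the chaperonin HSP60, depended on 1 array. It read 12.89, 13.26 and 11.58 on WT arrays A, B and C and 12.91, 12.43 and 12.49 on the KO arrays, so WT array C was the lowest of all 6. Its limma log2 fold change was 0.04 ± 0.30 SE (adjusted p = 0.959), and without WT array C it was -0.46 (adjusted p = 0.0117). Clpp and Clpx, a matrix protease and its unfoldase, missed the threshold at -0.11 ± 0.08 and -0.09 ± 0.08.

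**Figure D4:**
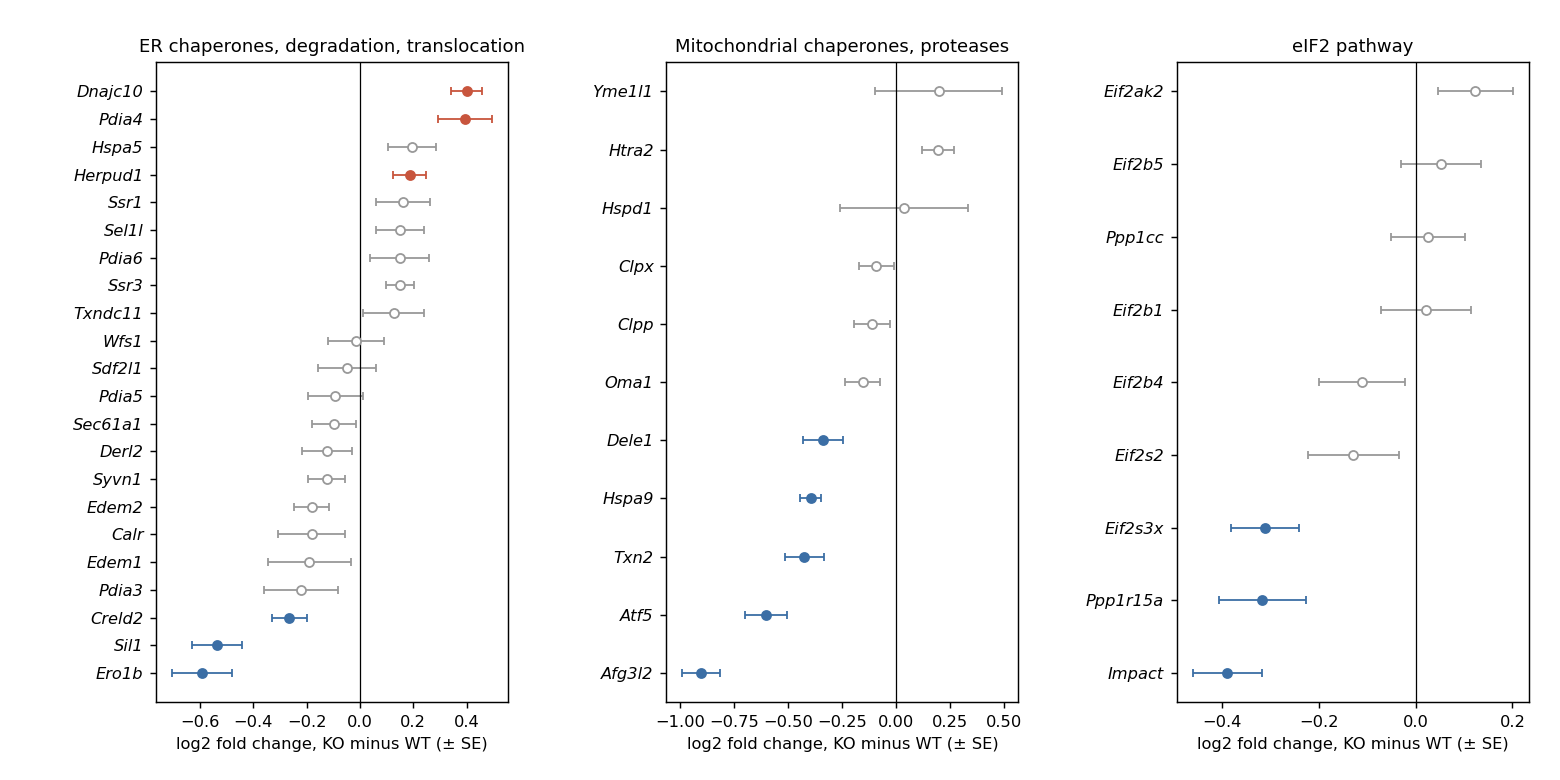
Log2 fold change (horizontal axis, KO minus WT, ± SE) of each tested gene of the ER, mitochondrial and eIF2 lists; filled symbols passed an adjusted p of 0.05 and open ones did not. Dnajc10, Pdia4 and Herpud1 are the called rises, and Afg3l2 lies lowest at -0.90.

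Other basic leucine zipper factors, which share the DNA-binding fold of ATF4, ATF5 and XBP1, held calls in both directions, at shares near those of all genes. Of 32 listed genes, Trib3 included as an antagonist, 21 were tested, 5 rose, 7 fell and 9 did not pass, and apart from Atf4, Xbp1 and Atf5 the counts were 3 and 6 of 18. With the members, 23.8% were higher and 33.3% lower, beside 21.8% each among all genes tested. Atf3, Ddit3 and Trib3 belong to this list as well as to the amino acid response. Junb, a component of AP-1, fell 1.4-fold, from 11.27, 11.29 and 11.29 to 10.77, 10.79 and 10.84 (limma adjusted p = 0.000168). Creb3l2, an ER-anchored factor, rose 1.37-fold, from 9.26, 9.24 and 9.27 to 9.67, 9.73 and 9.72 (adjusted p = 0.00103). Both separated the groups on every array. Fos, an AP-1 partner, was at 0.31 ± 0.12 (adjusted p = 0.102), and passed without WT array C (0.38, adjusted p = 0.0324). Nfe2l1 and Atf6b missed the threshold at 0.12 ± 0.07 and -0.03 ± 0.08.

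Among sensors and effectors of ER stress, 8 of 14 listed genes were tested, 1 rose, 1 fell and 6 did not pass, or 12.5% in each direction beside 21.8% each among all genes tested. Tmbim6, which encodes the ER protein BAX inhibitor 1, fell 1.31-fold, from 15.06, 15.25 and 15.11 to 14.73, 14.79 and 14.74 (limma adjusted p = 0.000156). Mapk8, the kinase JNK1, rose by its brighter probe, with 0.27 ± 0.09 SE (adjusted p = 0.0426), and its other probe gave -0.17. The Mapk8 call held in only 1 of the 6 fits that left out an array, the one without KO array C, with a range of 0.20 to 0.33. It was also lost with median scaling (adjusted p = 0.0546), without a filter (0.0608) and without the intensity trend (0.0699). Bak1 and Mbtps1, a mediator of apoptosis and a protease that activates ATF6, missed the threshold at -0.29 and 0.14, and Bak1 passed without KO array B (-0.43, adjusted p = 0.046).

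**Figure D5:**
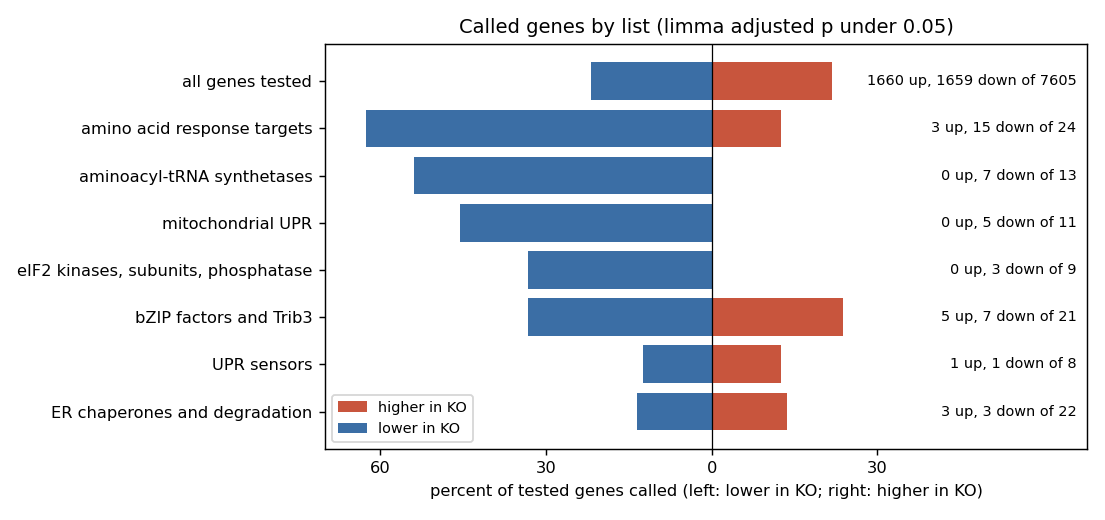
Percent of tested genes called lower and higher in KO for each list and for all 7605 genes tested. Amino acid response targets reach 62.5% lower, and the ER list stands at 13.6% in each direction.

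Genes with the most similar patterns were found by the root-mean-square difference of log2 intensities over the 6 arrays, each gene centred on its own mean, among 7604 other genes. For Atf4 they were Ebf2, Adamts1, Igf1, Stk25 and Tbx15, at differences of 0.0955 to 0.124. For Xbp1 they were Msi2, Idh1, Vasn, C1qtnf1 and Rbm43 (0.0413 to 0.0492). For Atf5 they were Rcor2, Plk2, Ghr, Cspg4 and Mtdh (0.0494 to 0.0735). For Asns they were Bahd1, Kdm2a, Wipi2, Mettl17 and Slc30a5 (0.0134 to 0.0305), none of which passed the test. The nearest gene to Atf4 was thus farther from it than any of the 5 named for each other member. Such a difference can grow with the fold change and the spread between arrays. Atf4 had the largest fold change of the members, so the distance does not set its pattern apart.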

How the data were processed

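Each array came with a table of raw probe intensities that the authors deposited, and the series with a table of processed intensities. The submitters' processing notes name BeadStudio 3.0 and the sources used here describe no further step. The raw intensities were corrected with normexp (offset 50), log2-transformed and quantile-normalized, and probes with a mean above the 40th percentile were kept. The offset understates changes of dim probes. KO was tested against WT with limma 3.58.1 in R 4.3.3 (lmFit, and eBayes with an intensity trend), with Benjamini-Hochberg adjustment over 27168 probes. On simulated data for this comparison, filtered anew to 27168 probes, 200 probes were given a change. The filter left 75 of those with a 2-fold and 86 of those with a 1.5-fold change. The test called 92.0% and 62.8% of these, respectively. The rest of the 200 were lost to the filter, and 14 unchanged probes were called. The simulation held 200 changed probes, against 5423 called in the data, and drew its noise separately for each array. The shares recovered may therefore differ from those in the real comparison. The number of arrays limits the precision.

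Of 10653 probes with 1 gene symbol, 10643 were matched to RefSeq by Entrez identifier, and a gene's brightest tested probe stands for it. Named genes were the 4 members, Ppif, the 5 genes of most similar pattern for each member, and from each list up to 5 called genes of lowest p and up to 3 of the brightest that did not pass. Genes outside this rule are marked in the text. The members and lists were chosen with earlier results of these data known.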

Additional observations from a re-analysis of the deposited data

How the results depend on the processing

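The alternatives were no background correction, an offset of 16, median scaling, the authors' processed table, no filter or one at the 70th percentile, no intensity trend, array weights, a replicate block, other probe rules, and each array left out in turn. Atf4, Xbp1 and Atf5 were called in all of them. Asns by its brightest probe passed with median scaling (-0.28, adjusted p = 0.0156) and with the replicate block (-0.17, adjusted p = 0.0414), and ranged from -0.23 to -0.10 over the fits that left out an array, passing only without KO array A. Same-lettered arrays did not deviate together throughout (correlations of 0.101, -0.0899 and 0.0753 for A, B and C), so the letters were not taken to pair the arrays. The replicate block gave 5273 calls over all probes against 5423. Without the intensity trend 4 synthetases were called. The ER list held 3 to 8 calls with arrays left out. The sensor list held 1 call with median scaling, without a filter and without the trend, and 1 to 3 with arrays left out.

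Signs changed only for values that did not pass in the main setting, at -0.12 for the dimmest Asns probe and nearer 0 for the others. With median scaling they were -0.0063 for Eif2b5, -0.032 for Ppp1cc and -0.020 for Hspd1, and with array weights 0.046 for Eif4ebp1 and -0.14 for Hspd1. With arrays left out, Atf6b ranged from -0.11 to 0.052, Eif2b5 from -0.016 to 0.15, Eif4ebp1 from -0.098 to 0.11, Ppp1cc from -0.043 to 0.095, Hspd1 from -0.46 to 0.38 and the dimmest Asns probe from -0.30 to 0.027. Of these, only Hspd1 passed after its sign changed, without WT array C (-0.46, limma adjusted p = 0.0117). The cause of these sign changes was not tested.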
